A study of Mus musculus with 10 samples.

Results

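The genes described are 10 transcripts by which granulosa cells of the ovarian follicle are commonly recognised: Fshr, Cyp19a1, Hsd17b1, Nr5a2, Foxl2, Amh, Amhr2, Inha, Inhba and Inhbb. They were chosen by symbol, and each of the 10 matched 1 row among the 54256 genes of the table. The tissue was the infundibulum, the funnel of the oviduct that opens beside the ovary and takes up the ovulated egg. The rmPRL group held 5 libraries from C57BL/6 mice of 8 to 10 weeks that were given recombinant murine prolactin (rmPRL) for 7 days, and the saline group held 5 libraries from wild-type C57BL/6 mice of the same age given saline. Each library pooled 4 infundibula from 2 animals, so a value is that of a pair of mice and not of 1 mouse. The labels give proestrus for 9 libraries, and diestrus for rmPRL library 2 alone.

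Granulosa cells surround the oocyte and respond to follicle-stimulating hormone (FSH) from the pituitary through the receptor encoded by Fshr. They turn androgens from neighbouring theca cells into estrogens, and they secrete anti-Müllerian hormone in growing follicles and inhibin in larger ones. In textbook accounts, Amh is highest in small growing follicles, while Fshr, Cyp19a1 and Inhba rise as follicles grow toward ovulation. The infundibulum is not known as a site of follicles, although Müllerian duct tissues use several of the same genes.

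The DNA around the RefSeq starts of 2 of the genes is shown as context for the values. RefSeq windows on GRCm38.p6, from 250 bases before to 50 bases after a start, were found for 8 of the 10 genes, 11 windows in all. The Inha and Foxl2 windows lie inside the GENCODE spans given below, so they do not hold the DNA before the GENCODE start. The windows were searched on both strands for CAAGGTCA or CAAGGCCA, sites of the nuclear receptors NR5A1 and NR5A2 (Nr5a2 is among the 10 genes), and for the cyclic AMP response element TGACGTCA. An NR5A match was found in 2 of the 11 windows, that of Amhr2 and 1 of the 3 of Cyp19a1, and in 3.92% of all 32851 windows in the table. The Cyp19a1 match lies 19 bases after the start. The cyclic AMP element was in none of the 11 windows of the 8 genes and in 1.79% of all windows. In the Amhr2 window, chr15:102445117-102445416 on the plus strand, the match begins 232 bases before the start. The Inhbb window, chr1:119422199-119422498 on the minus strand, holds neither motif and is given because Inhbb did not share the pattern of Amhr2 described below. The windows of Fshr, Nr5a2 and Inha, which did share that pattern, hold neither motif either. Capitals mark the NR5A match.
Amhr2: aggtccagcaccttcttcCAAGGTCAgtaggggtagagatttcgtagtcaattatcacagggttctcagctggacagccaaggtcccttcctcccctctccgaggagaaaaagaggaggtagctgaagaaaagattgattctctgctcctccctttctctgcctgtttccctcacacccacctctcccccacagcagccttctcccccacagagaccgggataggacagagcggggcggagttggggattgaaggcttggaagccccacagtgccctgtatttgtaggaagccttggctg
Inhbb: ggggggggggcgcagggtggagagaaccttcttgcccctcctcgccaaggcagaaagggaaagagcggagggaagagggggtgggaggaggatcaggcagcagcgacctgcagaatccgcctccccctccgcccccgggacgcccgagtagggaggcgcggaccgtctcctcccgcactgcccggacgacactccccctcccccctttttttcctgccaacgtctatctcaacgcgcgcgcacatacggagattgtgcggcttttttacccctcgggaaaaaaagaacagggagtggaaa
A match is a run of letters in this window and not a measured site.

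The values are the TPM that the authors deposited, levels that allow for transcript length and share 1 scale per library, and the columns summed to between 999445 and 999607. TPM keep no record of depth, so the counting error of the low values is unknown. Markers of the labelled tissue were present in every library: Ovgp1, an oviduct glycoprotein made by secretory cells, lay between 4923 and 10134 TPM, and Foxj1, the regulator of motile cilia, between 552 and 821 TPM.

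The 10 genes differed widely in level, and their highest values fell in a few libraries. Of the 10, 6 were highest in rmPRL library 2, 3 in saline library 4 and 1 in saline library 3. By the median of the 10 libraries, Inhbb stood at 30.0 TPM, Inha at 12.6 TPM, Foxl2 at 5.28 TPM and Amhr2 at 3.54 TPM. Nr5a2, Amh, Hsd17b1 and Inhba had medians of 0.848, 0.783, 0.725 and 0.638 TPM, and the ranges of these 4 genes over the libraries overlap. Cyp19a1 and Fshr had medians of 0.0507 and 0.0334 TPM. The sum over the 10 genes was 378 TPM in rmPRL library 2 and lay between 48.4 and 58.5 TPM in the other rmPRL libraries. It was 109 TPM in saline library 3 and 196 TPM in saline library 4, against 42.8 to 56.2 TPM in the other saline libraries. In rmPRL library 2, 8 of the 10 genes were at or above 2 times their own median over the 10 libraries, against 6 in saline library 3, 8 in saline library 4 and at most 2 in any other library. Of the 26595 genes with a median above 0, 11.2% reached that level in rmPRL library 2, 6.13% in saline library 3 and 7.89% in saline library 4. These 3 libraries were the highest 3 for Fshr, Hsd17b1, Nr5a2, Amh, Amhr2 and Inha, and for 1.62% of the genes with a median above 0. They were singled out after these values were seen, so the counts are a description. In bulk tissue, fewer cells of a type and less RNA per cell cannot be told apart.

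**Figure D1:**
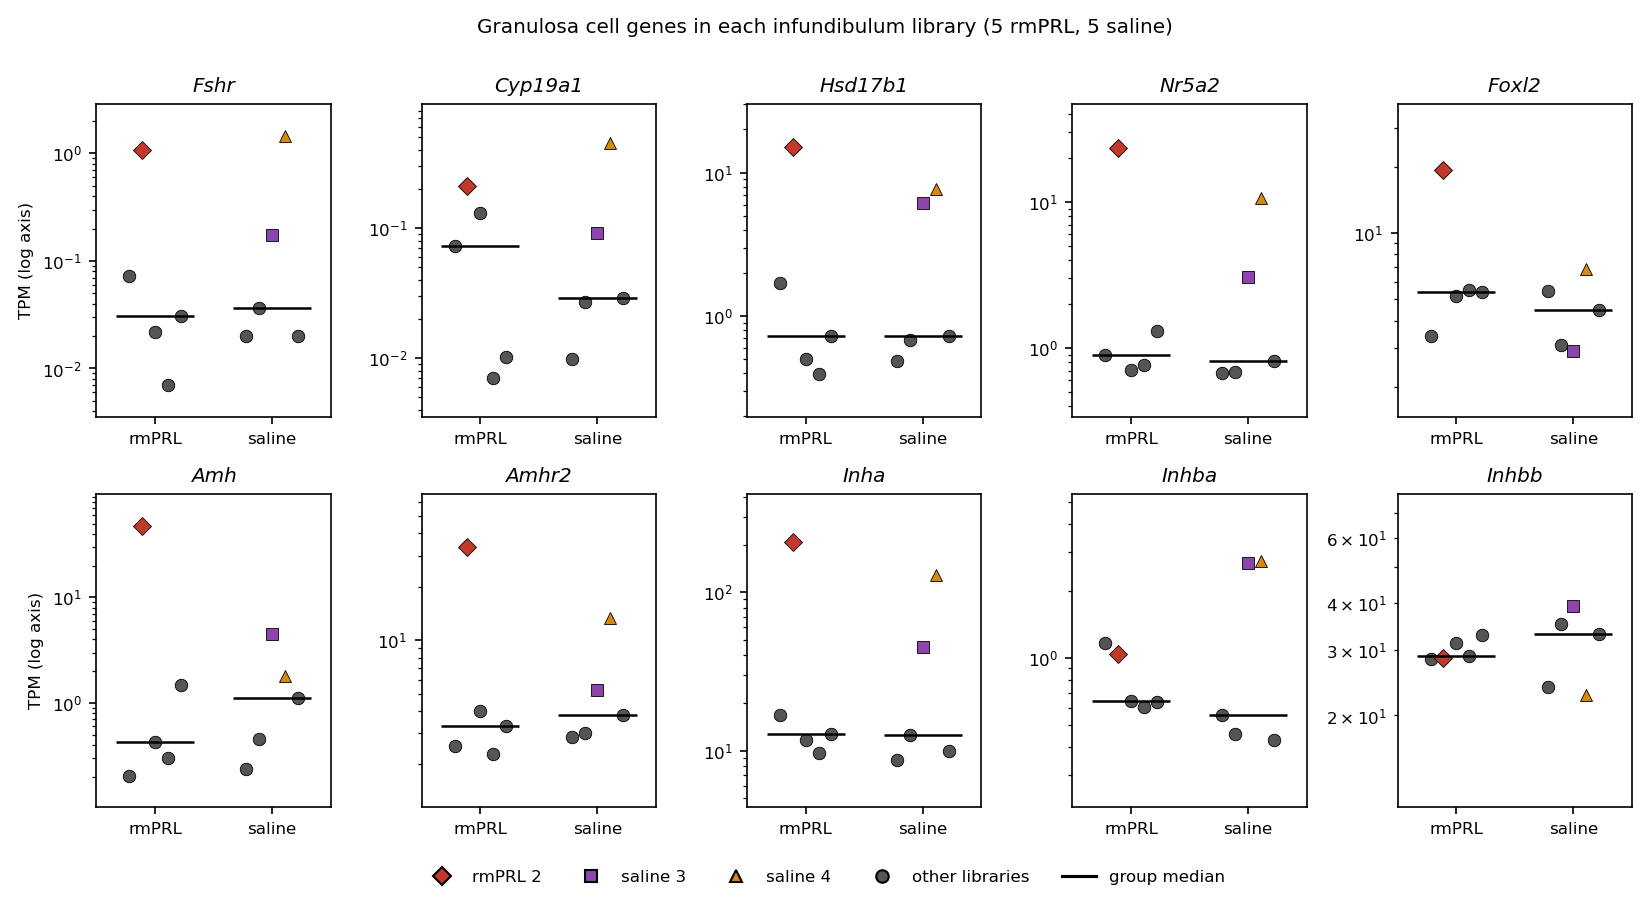
TPM (log axis) of the 10 granulosa cell genes in 5 rmPRL and 5 saline libraries, 1 point per library, with a line at each group's median. rmPRL library 2 (diamond), saline library 3 (square) and saline library 4 (triangle) are the highest 3 for 6 of the genes, while the 10 values of Inhbb lie between 22.7 and 39.3 TPM.

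Fshr and the enzymes of estrogen synthesis came first in the pathway and were low or nearly absent in most libraries. Fshr (ENSMUSG00000032937.5, GRCm38 chromosome 17, 88984952 to 89200675, minus strand) encodes the FSH receptor. Its level was 0.0729, 1.08, 0.0217, 0.00702 and 0.0305 TPM in rmPRL libraries 1 to 5, against 0.0200, 0.0364, 0.175, 1.44 and 0.0198 TPM in saline libraries 1 to 5. Only rmPRL library 2 and saline library 4 reached 1 TPM, and the groups overlapped. Cyp19a1 (ENSMUSG00000032274.9, chromosome 9, 54165937 to 54268110, minus strand) encodes aromatase, which makes estrogens from androgens. Its values were 0.0723, 0.212, 0.130, 0.00699 and 0.0101 TPM in rmPRL libraries 1 to 5, against 0.00978, 0.0267, 0.0915, 0.449 and 0.0291 TPM in saline libraries 1 to 5. No library reached 1 TPM, and the highest values were again those of rmPRL library 2 and saline library 4.

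Hsd17b1 (ENSMUSG00000019301.5, chromosome 11, 101078411 to 101080527, plus strand) encodes the dehydrogenase that turns estrone into the more active estradiol. Its level was 1.72, 15.1, 0.504, 0.394 and 0.725 TPM in rmPRL libraries 1 to 5, against 0.488, 0.679, 6.14, 7.68 and 0.726 TPM in saline libraries 1 to 5. The group medians were 0.725 TPM in rmPRL and 0.726 TPM in saline, and rmPRL library 2 and saline libraries 3 and 4 stood at 6.14 TPM or more. Hsd17b1 exceeded Cyp19a1 in TPM in every library.

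Nr5a2 and Foxl2, the transcription factors of the list, differed in how far they spread over libraries. Nr5a2 (ENSMUSG00000026398.14, chromosome 1, 136842571 to 136960448, minus strand) encodes LRH-1, a nuclear receptor that drives steroid-making genes in granulosa cells. Its values were 0.888, 23.4, 0.704, 0.766 and 1.31 TPM in rmPRL libraries 1 to 5, against 0.669, 0.683, 3.05, 10.7 and 0.809 TPM in saline libraries 1 to 5. rmPRL library 2 stood 27.6 times above the median of the 10 libraries for Nr5a2, and saline library 4 stood 12.6 times above it. Foxl2 (ENSMUSG00000050397.4, chromosome 9, 98955288 to 98958543, plus strand) encodes the forkhead factor that maintains granulosa cell identity. The libraries held 3.41, 19.3, 5.16, 5.53 and 5.41 TPM in rmPRL libraries 1 to 5, against 5.45, 3.08, 2.90, 6.87 and 4.46 TPM in saline libraries 1 to 5. Every library held Foxl2 at 2.90 TPM or more, and saline library 3, high for Inha and Hsd17b1, was the lowest for Foxl2. Foxl2os, a transcript of the opposite strand that shares 12 exonic bases with Foxl2, was at 8.03, 32.0, 8.48, 17.4 and 13.6 TPM in rmPRL libraries 1 to 5, against 15.7, 9.48, 6.95, 15.1 and 10.1 TPM in saline libraries 1 to 5. rmPRL library 2 was thus highest and saline library 3 lowest for both transcripts of this locus. Whether reads of the 2 strands were counted apart is not given in the sources used here.

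Amh separated rmPRL library 2 from all other libraries. Amh (ENSMUSG00000035262.5, chromosome 10, 80805243 to 80807648, plus strand) encodes anti-Müllerian hormone, which restrains the recruitment of follicles. Its level was 0.205, 47.7, 0.425, 0.300 and 1.49 TPM in rmPRL libraries 1 to 5, against 0.235, 0.458, 4.48, 1.82 and 1.11 TPM in saline libraries 1 to 5. rmPRL library 2 stood 60.9 times above the median of the 10 libraries for Amh. Saline library 4, next below rmPRL library 2 in Nr5a2 and Inha and above it in Fshr, stood 2.32 times above that median. Amhr2 (ENSMUSG00000023047.11, chromosome 15, 102445367 to 102454633, plus strand) encodes the type II receptor of the hormone and is also known from Müllerian duct mesenchyme. Its values were 2.54, 33.4, 4.02, 2.29 and 3.30 TPM in rmPRL libraries 1 to 5, against 2.85, 3.02, 5.24, 13.4 and 3.78 TPM in saline libraries 1 to 5. Amhr2 had a level of 2.29 to 4.02 TPM in the 7 libraries other than rmPRL library 2 and saline libraries 3 and 4, where Amh lay between 0.205 and 1.49 TPM. Amhr2 exceeded Amh in 9 of the 10 libraries, and the ratio of Amhr2 to Amh was 0.70 in rmPRL library 2.

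The inhibin and activin subunits differed from each other in how they varied over libraries. Inhibins pair the alpha subunit with a beta subunit and suppress FSH release, while activins are pairs of beta subunits and promote it. Inha (ENSMUSG00000032968.4, chromosome 1, 75507077 to 75510366, plus strand) encodes the alpha subunit. Inha stood at 16.7, 209, 11.6, 9.67 and 12.6 TPM in rmPRL libraries 1 to 5, against 8.74, 12.6, 44.9, 128 and 9.99 TPM in saline libraries 1 to 5. In the 7 other libraries Inha was 8.74 to 16.7 TPM, a range that both groups share.

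Inhbb (ENSMUSG00000037035.5, chromosome 1, 119415465 to 119422248, minus strand) encodes the beta B subunit. Inhbb stood at 28.3, 28.5, 31.3, 28.8 and 32.9 TPM in rmPRL libraries 1 to 5, against 23.8, 35.2, 39.3, 22.7 and 33.0 TPM in saline libraries 1 to 5. The highest and lowest Inhbb values were those of saline libraries 3 and 4, 2 of the 3 libraries that were high for Inha, and the whole range spanned 1.74 times. Inhba (ENSMUSG00000041324.14, chromosome 13, 16011851 to 16031621, plus strand) encodes the beta A subunit. Inhba stood at 1.17, 1.04, 0.641, 0.604 and 0.634 TPM in rmPRL libraries 1 to 5, against 0.558, 0.456, 2.67, 2.72 and 0.429 TPM in saline libraries 1 to 5. The Inhba level of rmPRL library 2 lay below that of rmPRL library 1, unlike its levels of Inha, Amh and Nr5a2. Inhbb exceeded Inhba in every library, by 8.32 times in saline library 4 and by 77.1 times in saline library 2.

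Set against each other, the alpha and beta B transcripts changed order between libraries. The ratio of Inha to Inhbb in TPM was 0.59, 7.31, 0.37, 0.34 and 0.38 in rmPRL libraries 1 to 5, against 0.37, 0.36, 1.14, 5.65 and 0.30 in saline libraries 1 to 5. The alpha transcript therefore exceeded the beta B transcript in rmPRL library 2, saline library 3 and saline library 4 and was below it in the other 7. The group medians of this ratio were 0.38 in rmPRL and 0.37 in saline, and the difference of its mean log2 values was -0.063 (two-sided exact permutation test, p = 0.968).

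**Figure D2:**
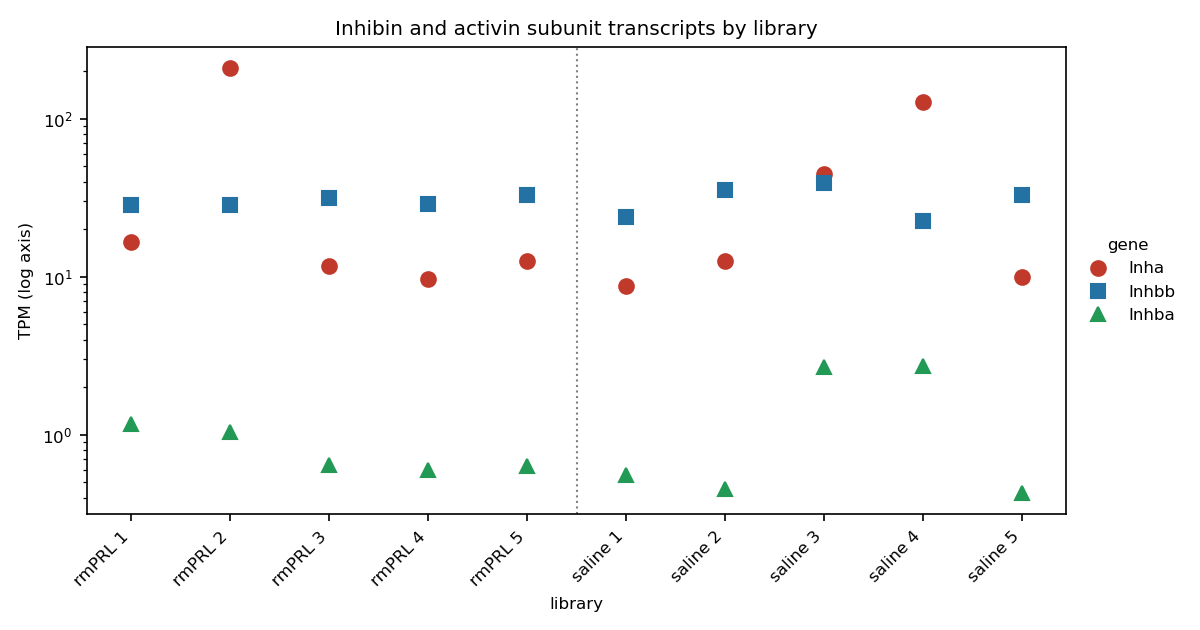
TPM (log axis) of the inhibin alpha subunit Inha and the beta subunits Inhbb and Inhba in each of 5 rmPRL and 5 saline libraries, 1 point per gene and library. Inha lies above Inhbb in rmPRL library 2, saline library 3 and saline library 4, and Inhba lies below Inhbb throughout.

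Other follicle and ovary markers moved with these genes by library. Among 12 other granulosa genes, 9 were at or above 2 times their own median over the 10 libraries in rmPRL library 2, 2 in saline library 3 and 7 in saline library 4. Nr5a1, the steroidogenic nuclear receptor SF-1, was at 20.4 TPM in rmPRL library 2, 1.35 TPM in saline library 3 and 13.1 TPM in saline library 4, and at 1.77 TPM or less in the other 7. Esr2, estrogen receptor beta of granulosa cells, was at 15.7 TPM in rmPRL library 2, 1.28 TPM in saline library 3 and 13.1 TPM in saline library 4, and at 0.639 TPM or less elsewhere. Gata6, at 24.1 to 34.6 TPM, and Greb1, at 42.1 to 77.4 TPM, did not separate these libraries. Grb14 and Serpine2, also present in every library, set apart some of these libraries but not saline library 3. Grb14 was at 144 TPM in rmPRL library 2 and 140 TPM in saline library 4, against 22.8 to 36.3 TPM elsewhere. Serpine2 reached 141 TPM in rmPRL library 2 and lay between 40.5 and 85.9 TPM elsewhere. Of these 12 genes 8 passed the filter of the group test described below, 4 with a higher and 4 with a lower mean log2 level in rmPRL. The summed level of the 12 genes ran from 179.5 to 544 TPM in rmPRL and from 198 to 416 TPM in saline.

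Oocyte markers were high in the same 3 libraries, and most of all in rmPRL library 2. All 10 oocyte markers in rmPRL library 2, and 8 of 10 in saline libraries 3 and 4 each, were at or above 2 times their own median. Their summed level was 198 TPM in rmPRL library 2 and 2.40 to 3.80 TPM in the other rmPRL libraries. It was 16.5 TPM in saline library 3, 23.6 TPM in saline library 4 and 3.16 to 3.90 TPM in the other saline libraries. Zp3, a protein of the egg coat, was at 44.1 TPM in rmPRL library 2, 4.81 TPM in saline library 3 and 5.00 TPM in saline library 4, and at 0.604 TPM or less in the other 7. Zp1 was listed at 0 in 3 libraries and Figla in 5, so the median of Figla was near 0. In saline library 3 Figla was counted among the 8 at only 0.0491 TPM. It was higher in saline libraries 1 and 5, at 0.208 and 0.0832 TPM.

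Luteal and theca markers were less uniform. Of the 10, 7 were at or above 2 times their own median in rmPRL library 2, 1 in saline library 3 and 5 in saline library 4, against at most 2 in any other library. Cyp11a1, the first enzyme of steroid synthesis, was at 125 TPM in rmPRL library 2 and 135 TPM in saline library 4, but at 5.44 TPM in saline library 3, within the range of 0.340 to 6.27 TPM of the other libraries. Cyp17a1, the androgen-making enzyme of theca cells, was at 18.2 TPM in rmPRL library 2, 0.354 TPM in saline library 3 and 11.6 TPM in saline library 4. Hsd3b1, a steroid dehydrogenase, was an exception, at 255 TPM in rmPRL library 2, 46.1 TPM in saline library 3 and 197 TPM in saline library 4, and at 28.4 TPM or less in the other 7. Ptgfr, the prostaglandin F receptor, was at 4.14 TPM in rmPRL library 2 and 3.76 TPM in saline library 4, and was highest in saline library 1 at 10.2 TPM. Akr1c18, a progesterone-inactivating enzyme, did not exceed 0.462 TPM. The summed level of the 10 luteal and theca markers ran from 73.3 to 546 TPM in rmPRL and from 88.5 to 466 TPM in saline. No luteal or theca marker was listed at 0 in every library, and Insl3 was listed at 0 in 5. Saline library 3 thus had raised Inha, Inhba, Hsd17b1 and Amh and oocyte transcripts with Cyp11a1 and Cyp17a1 at the level of the remaining libraries. Genes of cumulus expansion, which the cells around the ovulated egg use, differed in level. Over all 10 libraries Areg, an EGF-like ligand, lay between 31.5 and 45.5 TPM and Pgr, the progesterone receptor, between 9.93 and 28.3 TPM, while Has2 lay between 0.0151 and 0.314 TPM and Ptx3 between 0.193 and 1.17 TPM, Ptx3 being highest in rmPRL library 2. Of the 8 genes of that list, 1 reached 2 times its median in rmPRL library 2 and 0 did in saline libraries 3 and 4. Between the groups, 1 of the 5 that passed the filter, Pgr, had an unadjusted limma p under 0.05, which 16.0% of all tested genes had. Pgr was at 21.4 ± 5.14 TPM in rmPRL and 13.7 ± 2.87 TPM in saline (SD, n = 5 each, limma adjusted p = 0.199). The part of follicle, luteal and theca material in the levels of the 10 genes was not tested.

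**Figure D3:**
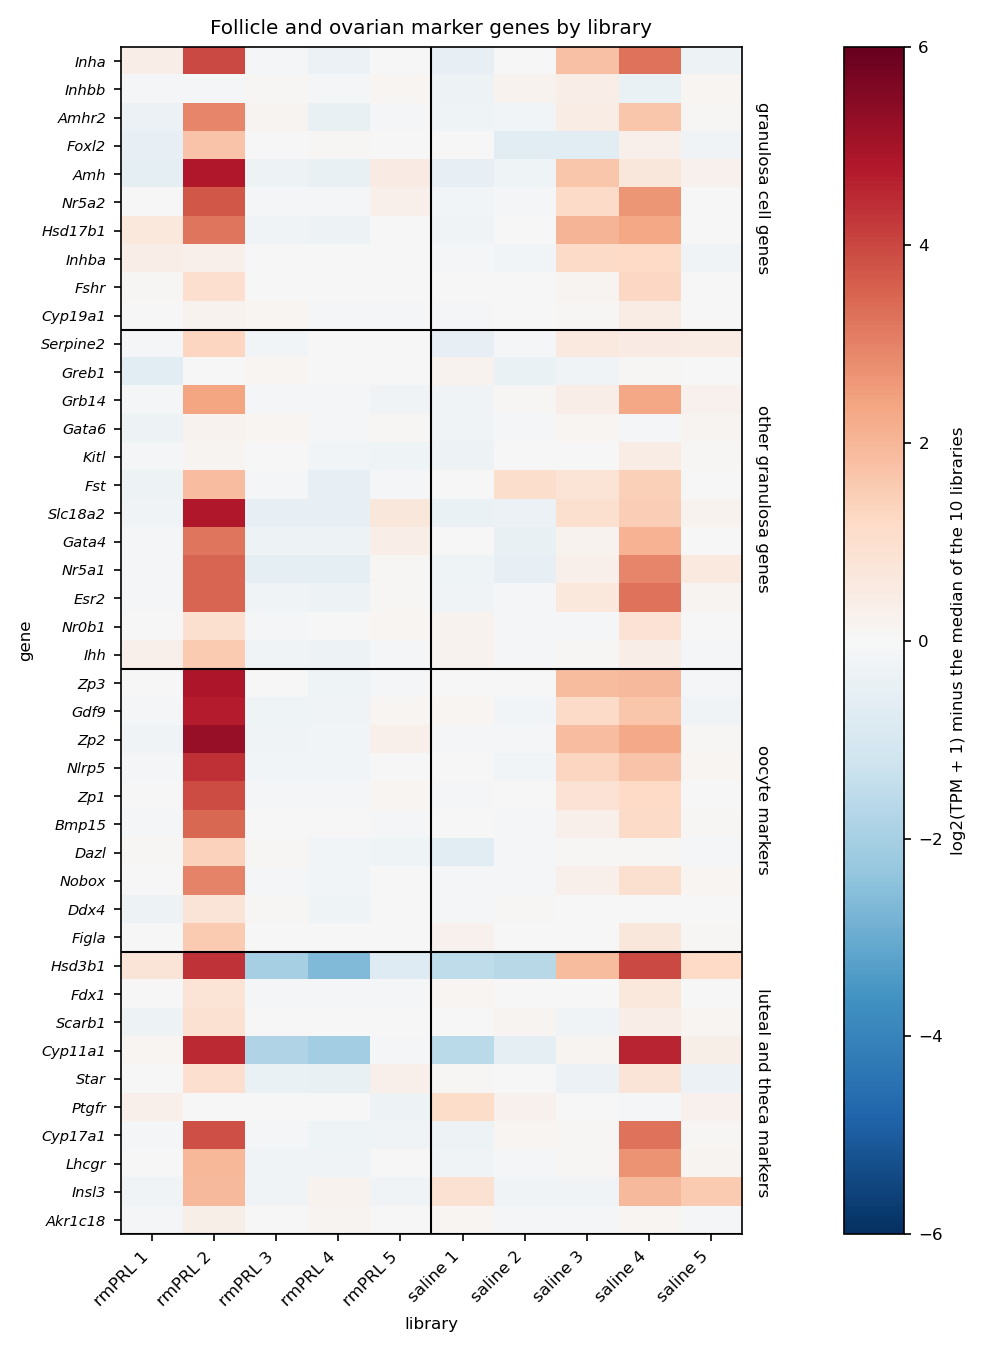
Each cell is log2(TPM + 1) of a gene in a library minus that gene's median over the 10 libraries, for the 10 granulosa cell genes, 12 other granulosa genes, 10 oocyte markers and 10 luteal and theca markers, with 5 rmPRL and then 5 saline libraries. In rmPRL library 2 and saline library 4 many genes of all 4 blocks are raised. In saline library 3, 6 of the 10 granulosa cell genes and 8 of the 10 oocyte markers reach 2 times their median TPM, against 2 of the 12 other granulosa genes and 1 luteal or theca marker, Hsd3b1. Figla is counted there at 0.0491 TPM because its median is near 0.

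In the mesothelial and ovarian surface list, which holds 8 genes, at most 1 gene reached 2 times its median in any library. Their summed level was 712 to 821 TPM in rmPRL and 755 to 832 TPM in saline, most of it Krt19 and Wt1. In rmPRL 5 of the 8 had a higher and 3 a lower mean log2 level, and 2, Lrrn4 and Gpm6a, had an unadjusted limma p under 0.05, both with the higher mean in rmPRL. Wt1, a factor of mesothelium and of the urogenital ridge that granulosa cells also use, was at 252.3 to 312.6 TPM. Stromal fibroblast markers summed to 968 to 2131 TPM in rmPRL and 603 to 1481 TPM in saline, and were lowest in saline library 3. All 8 of them had a higher mean log2 level in rmPRL, with a median difference of 0.52, and 1 had an unadjusted limma p under 0.05. The 6 smooth muscle and 5 endothelial markers were likewise all higher in rmPRL by mean log2 level. Of all 16131 tested genes, 7011 were higher and 9120 lower, and 16.0% had an unadjusted limma p under 0.05. rmPRL library 2 was also the lowest library for the secretory cell markers Ovgp1 (4923 TPM), Pax8 (52.3 TPM) and Sox17 (72.2 TPM). It was the highest for Muc16 (4.63 TPM), the other gene of that list. Its summed endothelial markers, 84.8 TPM, were the highest as well. The part of these markers in the levels of the 10 genes was not tested.

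The comparison of rmPRL with saline asked whether these transcripts changed after 7 days of prolactin. None of the 10 genes passed the threshold. Values of log2(TPM + 1) were fitted with limma over all genes that reached 1 TPM in 5 or more libraries, with a Benjamini-Hochberg adjusted p under 0.05 as the threshold. This filter kept 16131 genes, of which 0.0248% were called in either direction, and kept 5 of the 10 genes, Inha, Inhbb, Amh, Amhr2 and Foxl2. Of these 5, 0 were called, and 0 had an unadjusted limma p under 0.05, which 16.0% of all tested genes had. The other 5 genes were compared by a two-sided exact permutation test on log2(TPM + 1). The groups overlapped for all 10 genes, where 3.07% of the tested genes had groups that did not overlap.

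The differences below are in log2(TPM + 1), which understates the change of low genes. Foxl2 averaged 7.75 ± 6.49 TPM in rmPRL and 4.55 ± 1.67 TPM in saline (SD, n = 5 each). Its log2 values differed by 0.48 (SE 0.370, 95% interval -0.34 to 1.29, limma adjusted p = 0.526), and by 0.12 when rmPRL library 2 was left out. Inha averaged 51.8 ± 87.7 TPM in rmPRL and 40.9 ± 51.0 TPM in saline (SD, n = 5 each). Its log2 values differed by -0.068 (95% interval -2.15 to 2.02, limma adjusted p = 0.979). Leaving out rmPRL library 2 gave -0.86, and leaving out saline library 4 gave 0.53. The SD of Inha exceeded its mean in both groups. Inhbb averaged 30.0 ± 2.04 TPM in rmPRL and 30.8 ± 7.28 TPM in saline (SD, n = 5 each). Its log2 values differed by -0.0090, with a 95% interval of -0.32 to 0.30 (limma adjusted p = 0.980), the narrowest interval of the 5 genes.

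Amh averaged 10.0 ± 21.1 TPM in rmPRL and 1.62 ± 1.71 TPM in saline (SD, n = 5 each), while its medians stood the other way, at 0.425 TPM in rmPRL and 1.11 TPM in saline. The log2 values of Amh differed by 0.44 (95% interval -1.66 to 2.54, limma adjusted p = 0.835). Amh reached 1 TPM in 5 libraries, the least the filter allows, among them rmPRL library 2 and saline libraries 3 and 4. Without rmPRL library 2 it no longer passed the filter, and its difference was -0.56 (two-sided exact permutation test, p = 0.286). Amhr2 averaged 9.11 ± 13.6 TPM in rmPRL and 5.66 ± 4.43 TPM in saline (SD, n = 5 each). The log2 values of Amhr2 differed by 0.076 (95% interval -1.31 to 1.47, limma adjusted p = 0.962). Leaving out rmPRL library 2 gave -0.55, and leaving out saline library 4 gave 0.40.

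Of the genes below the filter, Inhba had the largest difference, -0.24, with means of 0.820 ± 0.269 TPM in rmPRL and 1.37 ± 1.22 TPM in saline (SD, n = 5 each). The two-sided exact permutation test for Inhba gave p = 0.452. Without rmPRL library 2 and saline libraries 3 and 4, a choice made after the data were seen, the Inhba difference was 0.24 (two-sided exact permutation test, p = 0.0571). The remaining 4 rmPRL and 3 saline libraries allow only coarse steps of p. The saline libraries left out were the highest for Inhba, at 2.67 and 2.72 TPM, so the choice itself lowers the saline mean. The smallest p that the full exact test allows is 0.00794. Fshr differed by -0.077 (p = 0.611), Cyp19a1 by -0.035 (p = 0.810), Hsd17b1 by -0.15 (p = 0.889) and Nr5a2 by 0.083 (p = 0.857) in the same exact permutation test. For the 5 tested genes the median log2 difference was 0.076, beside -0.026 over all 16131 tested genes.

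**Figure D4:**
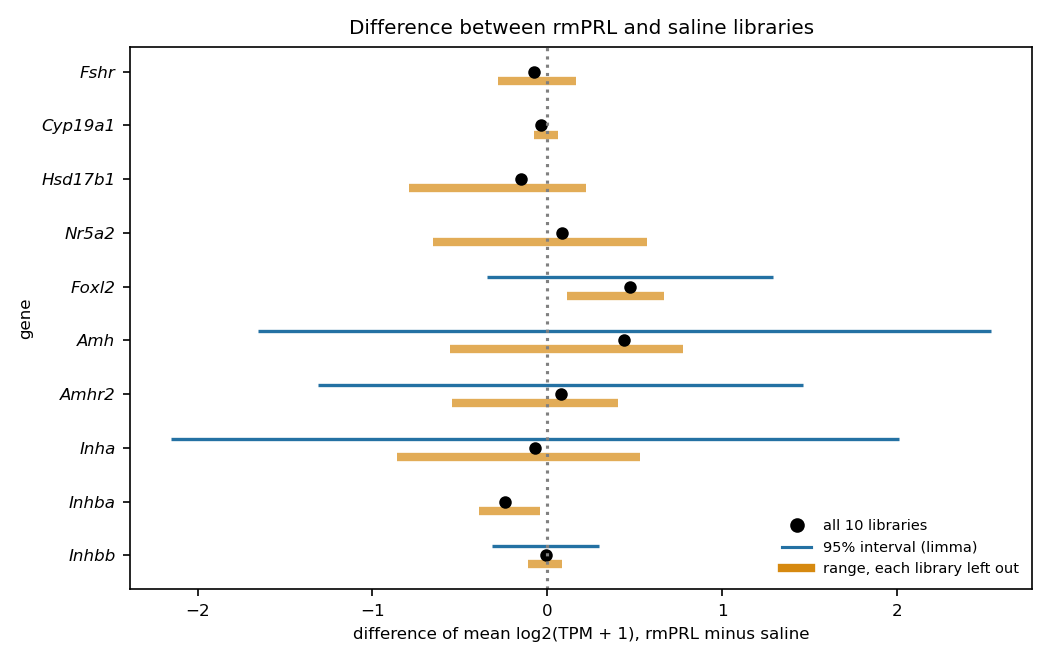
Points are the difference of mean log2(TPM + 1), rmPRL minus saline, of each granulosa cell gene. Thin lines are 95% intervals of limma for the 5 genes past the filter, and thick bars are the range with each library left out in turn. All intervals include 0, and the Foxl2 and Inhba bars alone do not cross it.

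Of the 15 other lists examined, for pathways and cell types, 0 genes passed the threshold (limma). The counts below stand beside 7011 higher and 9120 lower among all 16131 tested genes, 16.0% of which had an unadjusted limma p under 0.05. In the activin and inhibin pathway 11 of 14 genes passed the filter, 3 with a higher and 8 with a lower mean log2 level in rmPRL, and 3 had an unadjusted limma p under 0.05. The activin receptor Acvr1b was at 55.2 ± 4.02 TPM in rmPRL and 60.8 ± 6.02 TPM in saline (SD, n = 5 each), Smad4, the shared SMAD of these pathways, at 56.2 ± 2.22 TPM in rmPRL and 57.9 ± 5.83 TPM in saline, and Tgfbr3, a coreceptor of inhibin, at 49.5 ± 4.68 TPM in rmPRL and 48.3 ± 3.52 TPM in saline (SD, n = 5 each). Acvr2b, a type II activin receptor, had the lowest p of the list, at 3.66 ± 0.536 TPM in rmPRL and 5.20 ± 0.765 TPM in saline (SD, n = 5 each), with a mean log2 level that differed by -0.41 (limma adjusted p = 0.195). Fst, which binds and blocks activin, was at 2.90, 16.9, 3.63, 2.51 and 3.42 TPM in rmPRL libraries 1 to 5, against 3.74, 9.05, 7.66, 12.1 and 4.00 TPM in saline libraries 1 to 5. Fst was thus highest in rmPRL library 2 and saline library 4, but saline library 2, low for Inha, came next. The liver-type subunits Inhbc and Inhbe were at or near 0, at 0.0224 TPM or less.

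In the pathway of the AMH receptor 9 of 10 genes passed the filter, 6 higher and 3 lower in rmPRL, and 1 had an unadjusted limma p under 0.05. By group mean, the type I receptors that pair with Amhr2 stood above it. Bmpr1a was at 41.4 ± 1.67 TPM in rmPRL and 39.4 ± 3.26 TPM in saline, and Bmpr1b at 26.9 ± 6.10 TPM in rmPRL and 33.8 ± 3.60 TPM in saline (SD, n = 5 each, limma adjusted p = 0.578 and 0.263). Acvr1 was at 19.7 ± 1.34 TPM in rmPRL and 18.5 ± 1.15 TPM in saline (SD, n = 5 each). In rmPRL library 2, Amhr2 at 33.4 TPM exceeded Bmpr1b at 23.0 TPM and Acvr1 at 20.7 TPM, but not Bmpr1a at 42.7 TPM. Smad5, which carries the signal of these receptors, was at 73.0 ± 3.53 TPM in rmPRL and 77.6 ± 9.82 TPM in saline (SD, n = 5 each). Id3, an inhibitor of differentiation that BMP-type signals induce, was highest in rmPRL library 2 at 58.0 TPM and in saline library 4 at 40.2 TPM. Id2 was also highest in these libraries, at 65.2 and 61.3 TPM. Id1 was highest in rmPRL library 4 at 46.4 TPM, and stood at 45.3 TPM in rmPRL library 2 and 31.9 TPM in saline library 4. In the pathway of the FSH receptor 10 of 12 genes passed the filter, 4 higher and 6 lower, and 3 had an unadjusted limma p under 0.05. Gnas, the G protein subunit next to the receptor, was at 759 ± 9.72 TPM in rmPRL and 768 ± 27.2 TPM in saline, and Prkar1a, a regulatory subunit of protein kinase A, at 193 ± 7.48 TPM in rmPRL and 176 ± 6.73 TPM in saline (SD, n = 5 each, limma adjusted p = 0.877 and 0.248). Prkar2b, another such subunit, which FSH induces in rat granulosa cells, was at 14.6, 40.4, 15.9, 14.5 and 13.8 TPM in rmPRL libraries 1 to 5, against 12.2, 18.0, 24.5, 33.6 and 17.8 TPM in saline libraries 1 to 5. The 3 highest Prkar2b values were those of the 3 libraries with the highest Inha. Fshb, a subunit of FSH itself, was listed at 0 in every library.

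Among 10 measured genes of estrogen synthesis, inactivation and reception, 7 passed the filter, 5 higher and 2 lower, and 1 had an unadjusted limma p under 0.05. Esr1, the estrogen receptor of the oviduct, was at 158 ± 21.4 TPM in rmPRL and 156 ± 19.1 TPM in saline (SD, n = 5 each, limma adjusted p = 0.937). Hsd17b12 was at 64.0 ± 5.82 TPM in rmPRL and 55.3 ± 5.71 TPM in saline (SD, n = 5 each, limma adjusted p = 0.275). Of the partners of Foxl2 and Nr5a2, 6 of 9 genes passed the filter, 3 higher and 3 lower, with 2 at an unadjusted limma p under 0.05. Ctnnb1, beta-catenin, was at 608 ± 24.5 TPM in rmPRL and 602 ± 65.6 TPM in saline (SD, n = 5 each). Sox9, the testis-side counterpart of Foxl2 in gonads that oviduct epithelium also uses, was at 31.3 ± 5.14 TPM in rmPRL and 32.9 ± 1.98 TPM in saline (SD, n = 5 each). Dmrt1, another testis-side factor, did not exceed 0.0424 TPM.

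Genes with the most similar profiles over the 10 libraries were named for each gene with a mean of at least 1 TPM. Pearson's r of log2(TPM + 1) was taken with each of 13851 named genes that reached 1 TPM in 5 or more libraries. Genes below that filter, such as Nr5a1, Esr2 and Zp3, were not compared, nor were the 10 genes with each other. The r values describe 10 libraries, 3 of which stand apart, so they carry no test. Inha and Hsd17b1 shared the same nearest genes, Cnmd (r = 0.98 for Inha, 0.97 for Hsd17b1) and Nap1l5 (0.97 and 0.95). Nr5a2 was closest to Zbtb8b (0.98), and Gata4, a factor of gonadal somatic cells, was the third (0.98). For Amh the nearest were Tmem171 (0.97) and Npm2, a chaperone of the oocyte nucleus (0.96), and these fell to 0.80 and 0.72 without rmPRL library 2. Foxl2 was closest to Gucy1a1, a subunit of the nitric oxide receptor (0.98), and Sfrp1, a Wnt antagonist (0.98). Amhr2 was closest to Pacc1 (0.98). For Inhba the nearest was Sec22a, at 0.84. Inhbb had other neighbours, with Dnah7a, an axonemal dynein of motile cilia, first at 0.97 both with and without rmPRL library 2.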

How the data were processed

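RNA of the infundibulum was measured in 5 rmPRL and 5 saline libraries, grouped by the labels' titles. Per the labels' protocols, 0.5 ug of total RNA entered a TruSeq stranded mRNA kit. Reads were, per the series text and processing notes of the submitters, trimmed with Trimmomatic (quality 15, minimum length 20 bases), aligned to mm10 with HISAT2, counted with featureCounts and compared with DESeq2 by the authors. The sources used here give no versions, annotation or step from counts to TPM. The authors deposited TPM values, with 1 column per library per the file headers, and called them scaled TPM. Since TPM hold no depth, count models were not used.

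Group differences were tested with limma 3.58.1 in R 4.3.3 (trend and robust estimation, with only group in the model) on log2(TPM + 1), over genes that reached 1 TPM in 5 or more of 10 libraries. Single values were compared by a two-sided exact permutation test. Of 54256 versioned identifiers, 53525 were in GENCODE vM21 on GRCm38, all 10 genes among them, and coordinates come from it. Of 139 listed symbols, 137 matched the table, and Hsd17b8 and Sts did not. The genes, lists and tests were chosen with earlier results of these data known. The rule was to describe all 10 genes, and from each other list genes past the threshold or else up to 3 with the highest means. Other listed genes were picked after their values were seen. The limma script was checked on simulated data. Alternatives were other pseudocounts, filters and scalings (TMM factors were computed as unweighted trimmed means on TPM, in place of the planned edgeR function, which needs counts), a plain limma fit without trend or robust estimation, a block on replicate number, and libraries left out. Figures were drawn with matplotlib 3.10.9.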

Additional observations from a re-analysis of the deposited data

Results flagged for a closer look

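Within each group of 5 libraries, a value was marked where its gap to the nearest other library exceeded 0.71 of the group's range (Dixon's 95% value). Chance does this in about 1 in 20 groups of normally distributed values. The TPM were not logged here and the genes share libraries, so that rate need not hold and the marks are a description. Of 20 group values of the 10 genes, 11 were marked, 7 for rmPRL library 2 and 4 for saline library 4. In rmPRL, library 2 stood apart for Inha at 208.6 TPM (next 16.7 TPM), Amh at 47.7 TPM (next 1.49 TPM), Amhr2 at 33.4 TPM, Nr5a2 at 23.4 TPM, Foxl2 at 19.3 TPM, Hsd17b1 at 15.1 TPM and Fshr at 1.08 TPM. In saline, library 4 stood apart for Amhr2 at 13.4 TPM, Nr5a2 at 10.7 TPM, Fshr at 1.44 TPM and Cyp19a1 at 0.449 TPM. Inha in saline was not marked, because saline library 3 lies between library 4 and the rest. Inhba and Inhbb were not marked in either group.

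The summed levels of other ovarian lists were marked in the same libraries. In rmPRL, library 2 held 544 TPM of other granulosa genes, 198 TPM of oocyte markers and 546 TPM of luteal and theca markers. In saline, library 4 held 416 TPM of other granulosa genes and 466 TPM of luteal and theca markers, and its oocyte markers were not marked. The part of these lists in the levels of the 10 genes was not tested. rmPRL library 2 is also the one library labelled diestrus, so stage and library cannot be told apart.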

How the results depend on the processing

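Over 22 alternatives, 0 of the 10 genes passed the threshold under any of them (limma adjusted p or exact permutation p). The lowest was an exact permutation p of 0.0571, for Inhba without rmPRL library 2 and saline libraries 3 and 4. Under the replicate block the paired exact test cannot go below 0.0625, so genes below the filter could not pass there. Of 212 such differences 42 changed direction, for 9 of the 10 genes, and Foxl2 alone kept its direction throughout, at 0.12 to 0.67. With single libraries left out, the log2 difference ran from -0.28 to 0.16 for Fshr, from -0.076 to 0.061 for Cyp19a1, from -0.86 to 0.53 for Inha, from -0.11 to 0.085 for Inhbb, from -0.56 to 0.78 for Amh, from -0.55 to 0.40 for Amhr2, from -0.79 to 0.22 for Hsd17b1, from -0.65 to 0.57 for Nr5a2 and from -0.39 to -0.042 for Inhba. Without both rmPRL library 2 and saline library 4 it was 0.021 for Cyp19a1, -0.48 for Amh, -0.22 for Amhr2 and -0.16 for Nr5a2. Without saline library 3 as well, a setting added after the data were seen, it was 0.010 for Fshr, 0.044 for Cyp19a1, 0.24 for Inha, 0.24 for Inhba, 0.000305 for Inhbb, -0.023 for Amh, -0.076 for Amhr2 and 0.12 for Hsd17b1. Scaling turned Inhbb to 0.018 (TMM factors), 0.018 (quantile normalization) and 0.013 (rescaling without mitochondrial and the 50 highest genes); the cause was not tested.

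Over all genes, limma called 4 (3 higher, 1 lower). At an unadjusted p under 0.05 it had 990 higher and 1598 lower in rmPRL, but 1368 higher and 1176 lower with TMM factors. Without a filter on low values it called 0 (3276 at an unadjusted p under 0.05). It called 0 without both rmPRL library 2 and saline library 4 (2081), 0 without saline library 3 as well (1657), 2 with the replicate number as a block, and 1 to 17 with single libraries left out. The numbers do not pair the libraries: the correlation of same-numbered deviations ran from -0.248 to 0.108. Under the block 0 of the 5 genes that limma could test were called. TPM keep no depth, so whether the lowest values of Fshr and Cyp19a1 differ beyond counting error could not be judged.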
